A study of Mus musculus with 4 samples.

Results

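Imprinted genes that lie outside the large imprinted clusters were examined allele by allele in F123-ESCs. The set was given by name and holds Igf2r, Airn, Grb10, Plagl1, Impact, Peg13, Kcnk9, Trappc9, Nnat and Gnas, and its 10 genes are all among the 24026 genes of the deposited RNAseq values. F123-ESCs are a male mouse embryonic stem cell line from a cross of S129/Jae and Cast mice, in which S129 is the maternal and CAST the paternal genome of every cell. The genotype S129/CAST and the absence of any treatment were shared by all 4 libraries, replicates 1 to 4, which were grown on feeder fibroblasts with LIF, moved to gelatin to remove the feeders and harvested after about 48 h. F123 is a single hybrid line from a single direction of the cross, so maternal and S129, and likewise paternal and CAST, cannot be told apart. The labels do not say whether the libraries came from separate cultures, so the p-values measure the spread between these libraries, which may be technical.

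Genomic imprinting marks a gene by the parent it came from, usually through DNA methylation laid down in the egg or the sperm at a control region, and the marked gene is then transcribed from only a single parental copy. Maternal expression is known for Igf2r and, in most tissues, for Grb10, and paternal expression for Airn, Plagl1, Impact, Peg13 and Nnat, while Kcnk9, Trappc9 and Gnas are known to be biased towards a parental copy in some tissues such as brain. Several of these biases appear only during differentiation, and Igf2r is known to be transcribed from both copies in undifferentiated cells.

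The 4 libraries held between 34120416 and 56627972 reads that were assigned to an allele, and S129 took between 50.8 and 51.0% of them. In this male line the X chromosome is maternal, and 0.112 to 0.132% of the X-linked reads were assigned to CAST. On the 6 chromosomes that carry the set, the median S129 share of a gene lay between 50.2 and 51.2%. All 8 pluripotency markers were present, at 29.5 to 7111 RPKM, and the highest were Dppa5a at 7111, Zfp42 at 512 and Tfcp2l1 at 583 RPKM. The 8 feeder fibroblast markers ranged from 0.0462 to 166 RPKM, with a median of 8.56 RPKM, and none was at 0. They were led by Col1a2 at 166, Fn1 at 53.4 and Postn at 15.4 RPKM. The sum of these 8 genes ranged from 223 to 288 RPKM over the libraries, and their part in the results was not tested. The S129 shares of the 7 with at least 100 reads ranged from 41.8 to 79.9%. In bulk RNA, fewer cells of a type and less RNA per cell cannot be told apart. Neural markers ranged from 0.0505 to 76.2 RPKM and were led by Nes at 76.2, Tubb3 at 20.0 and Map2 at 11.1 RPKM.

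Most of these imprinted genes were read from both alleles in F123-ESCs. Of the 9 genes with reads, Peg13 stood apart, with 18.0% of its reads from S129, and the shares of the other 8 lay between 46.0 and 57.1%. The alleles were tested against each other with limma, using differences of log2(RPKM+0.1) within each library, and a gene is called where its Benjamini-Hochberg adjusted p over all genes tested is under 0.05. Of the 8 genes of the set that had at least 1 RPKM in the alleles together, 3 were called, Grb10 and Trappc9 with a higher S129 allele and Peg13 with a higher CAST allele. The background was high, since 62.7% of the 13341 genes tested were called, 31.4% with a higher S129 and 31.3% with a higher CAST allele, so a call by itself does not set these genes apart. With allele columns scaled to equal autosomal sums, S129 was higher in 5134 of 8204 calls over all genes, in place of 4187 of 8369. In the set it was higher in 3 of 4 calls in place of 2 of 3. This scaling moved the median log2 difference of S129 minus CAST over all genes tested from -0.003 to 0.099, towards S129.

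Levels, taken as the mean RPKM of both alleles, spanned the range from Impact at 113 ± 12.7 RPKM (SD, n = 4) down to Nnat, which was listed at 0 in every column. Impact was followed by Grb10 at 11.6 ± 1.71, Plagl1 at 8.58 ± 0.156, Igf2r at 8.04 ± 0.57, Trappc9 at 5.66 ± 0.22 and Airn at 3.22 ± 0.174 RPKM. Gnas had 2.12 ± 0.305, Peg13 1.12 ± 0.0781 and Kcnk9 0.104 ± 0.0554 RPKM. The library values of Plagl1 and Igf2r overlapped (p = 0.25, two-sided exact sign-flip test), and those of every other pair of neighbours in this order did not. For these pairs the exact sign-flip p was 0.125, the smallest that 4 libraries allow, and 0.188 after adjustment over 18 tests. RPKM is per gene length, but only reads over a SNP between the strains can be assigned, and the number of SNPs per transcript was not accounted for. The order also depends on the length used, and with the length of all annotated exons, Grb10 had 1.204 and Plagl1 1.36 RPKM, below Trappc9 at 2.89 RPKM. Airn then had 0.754 and Gnas 0.390 RPKM, both below Peg13 at 1.12 RPKM.

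**Figure D1:**
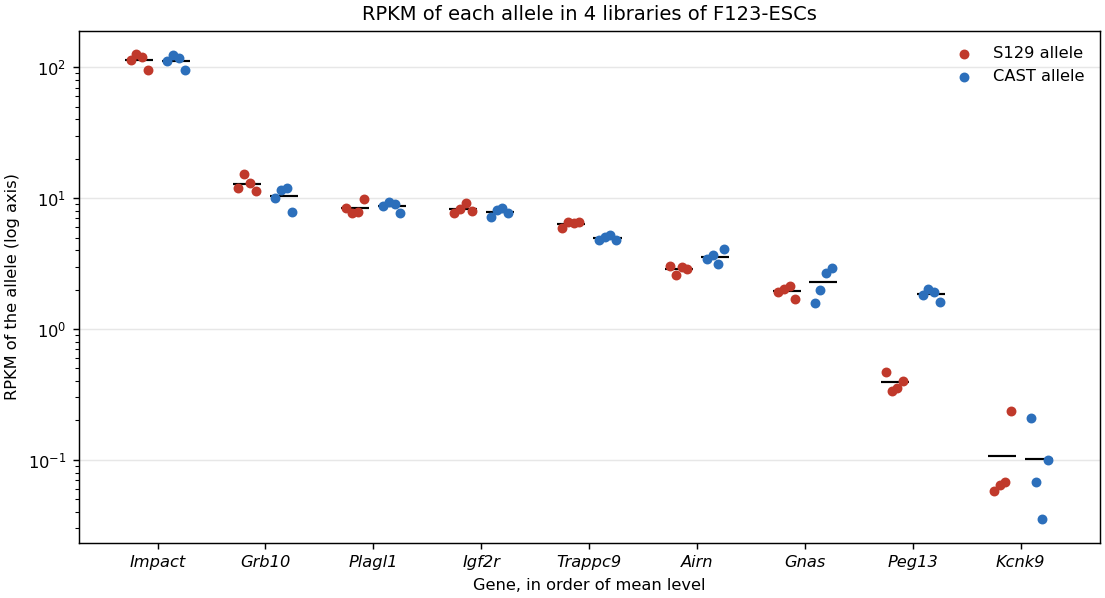
RPKM of the S129 allele (red) and the CAST allele (blue) on a log axis for the 9 genes with reads, with a point for each of the 4 libraries and a black line at the mean. For Peg13 all 4 CAST points, from 1.61 to 2.03 RPKM, lie above all 4 S129 points, from 0.338 to 0.471 RPKM, while for Impact, Igf2r, Grb10, Plagl1, Gnas and Kcnk9 the colours overlap.

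Igf2r encodes the cation-independent mannose 6-phosphate receptor, which carries lysosomal enzymes and removes IGF2, and Airn is the long noncoding RNA that runs antisense to it and is known to silence the paternal Igf2r. In mm10, Igf2r (ENSMUSG00000023830) lies on chromosome 17 from 12682406 to 12769664 on the minus strand, and Airn (ENSMUSG00000078247) from 12741311 to 12860136 on the plus strand. Airn starts in intron 2 of the 48-exon Igf2r transcript, and both genes share 28354 bp. The RefSeq promoters of GRCm38.p6, from 250 bases before to 50 after the start, are shown because these start sites face each other in the only sense and antisense pair of the set. The Igf2r promoter (chr17:12769657-12769956, minus strand) holds 34 CpG dinucleotides and the Airn promoter (chr17:12741061-12741360, plus strand) holds 3, while the median over 32851 promoters of this length is 7.
Igf2r: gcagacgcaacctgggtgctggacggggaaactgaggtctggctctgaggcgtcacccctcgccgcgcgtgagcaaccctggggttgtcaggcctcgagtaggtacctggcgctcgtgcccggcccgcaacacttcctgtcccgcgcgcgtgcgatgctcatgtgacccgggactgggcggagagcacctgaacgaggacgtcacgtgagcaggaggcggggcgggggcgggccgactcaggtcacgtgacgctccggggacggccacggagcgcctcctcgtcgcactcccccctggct
Airn: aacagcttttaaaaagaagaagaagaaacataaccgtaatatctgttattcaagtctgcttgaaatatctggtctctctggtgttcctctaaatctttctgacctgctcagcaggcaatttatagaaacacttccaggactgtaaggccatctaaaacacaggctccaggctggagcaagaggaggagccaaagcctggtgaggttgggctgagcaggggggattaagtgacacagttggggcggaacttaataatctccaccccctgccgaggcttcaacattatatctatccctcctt
These are reference sequences, not those of S129 or CAST, and bases outside these windows, including any control region there, were not searched. Neither holds TGCCGC on either strand, the hexamer that the zinc finger protein ZFP57 recognises when it is methylated and through which imprints are kept, and 11.6% of all promoters of this length hold it.

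Igf2r was read from both alleles at close levels. Its S129 allele had 7.67, 8.25, 9.11 and 7.93 RPKM in replicates 1 to 4, and its CAST allele had 7.15, 8.06, 8.43 and 7.75 RPKM. S129 was above CAST in each of the 4 libraries, but the ranges of the alleles overlapped. Of 13512 reads, 7058 were from S129, a share of 52.2% (95% Clopper-Pearson interval 51.4 to 53.1), and the libraries lay between 51.6 and 52.9%. The log2 difference of S129 minus CAST was 0.07 (95% interval -0.02 to 0.16, limma adjusted p = 0.134). Igf2r passed the threshold in 3 of 13 alternatives, among them equal autosomal sums, where its log2 difference was 0.17 (limma adjusted p = 0.0278). The median over all genes tested was 0.099 in that setting and -0.003 in the main fit.

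Airn was also read from both alleles, at a lower level. In replicates 1 to 4 the S129 allele had 3.05, 2.59, 2.999 and 2.87 RPKM and the CAST allele 3.41, 3.67, 3.12 and 4.05 RPKM. All CAST values lay above all S129 values, and alleles likewise did not overlap for 43.6% of 12869 autosomal genes tested. In replicate 3 each allele had 62 reads, and CAST had the higher RPKM only because its read total was smaller. The S129 share was 46.0% (41.6 to 50.4) over 509 reads, with libraries between 42.4 and 50.0%. The log2 difference was -0.29 (-0.55 to -0.04, limma adjusted p = 0.0530), which missed the threshold here and passed it in 5 of 13 alternatives (adjusted p from 0.0337 to 0.179). The difference of S129 minus CAST was larger for Igf2r than for Airn in 4 of 4 libraries, by 0.36 ± 0.182 on the log2 scale (SD, n = 4, exact sign-flip p = 0.125, adjusted 0.188). The libraries were prepared with a kit that keeps strand, but whether the counting used strand is not given in the sources used here. Without it, reads of Igf2r and Airn in their overlap cannot be told apart. The listed neighbour Mas1, on the minus strand, also overlaps Airn, by 19058 bp, and with 15 reads in all it was not tested.

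The Trappc9 domain on chromosome 15 held the largest difference between alleles in the set. Peg13 (ENSMUSG00000106847, 72805600 to 72810324, minus strand) is a noncoding RNA that lies whole inside intron 16 of the 22-exon transcript of Trappc9 (ENSMUSG00000047921, 72589620 to 73061204, minus strand) and overlaps no exon of its 7 annotated transcripts. Trappc9 encodes a subunit of a complex that tethers transport vesicles. Kcnk9 (ENSMUSG00000036760, 72501089 to 72546340, minus strand) encodes a background potassium channel of the TASK family.

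Peg13 was read mainly from the paternal CAST allele. Its CAST allele had 1.82, 2.03, 1.92 and 1.61 RPKM in replicates 1 to 4, and its S129 allele had 0.471, 0.338, 0.353 and 0.401 RPKM. The lowest CAST value was above the highest S129 value, so the alleles did not overlap, as was the case for 43.6% of 12869 autosomal genes tested. The S129 reads numbered 64, 41, 41 and 33 and the CAST reads 240, 236, 214 and 127. S129 therefore gave 18.0% of 996 reads (15.6 to 20.5), with library shares of 21.1, 14.8, 16.1 and 20.6%. CAST was 3.97-fold higher (95% interval 3.21 to 4.91), a log2 difference of -1.99 (-2.30 to -1.68, limma adjusted p = 0.000254). A call with at least a 2-fold difference was made for 11.9% of the autosomal genes tested, and for 5.63% with CAST higher. The remaining S129 reads, 179 in all, were present in every library. The X-linked reads show only how often S129 reads were assigned to CAST, not the opposite error. Whether the remaining S129 reads of Peg13 were misassigned was not tested.

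Trappc9 had its higher values on the other allele. The S129 values were 5.92, 6.57, 6.40 and 6.60 RPKM and the CAST values 4.75, 5.02, 5.23 and 4.79 RPKM in replicates 1 to 4. All S129 values lay above all CAST values, and alleles likewise did not overlap for 43.6% of 12869 autosomal genes tested. The library shares ran from 56.0 to 58.9%. The S129 share over 4333 reads was 57.1% (55.6 to 58.6), and S129 was 1.28-fold higher (log2 difference 0.36, 0.25 to 0.47, limma adjusted p = 0.00231). The difference of S129 minus CAST was larger for Trappc9 than for Peg13 in 4 of 4 libraries, by 2.35 ± 0.262 on the log2 scale (SD, n = 4, exact sign-flip p = 0.125, adjusted 0.188). Both transcripts come from the same strand, so strand cannot tell reads of Peg13 from reads of unspliced Trappc9 RNA over the same interval.

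Kcnk9 was close to the limit of detection. Its S129 allele had 0.0575, 0.0644, 0.0674 and 0.238 RPKM, and its CAST allele 0.208, 0.0672, 0.0350 and 0.0990 RPKM. These values rest on 1 to 7 reads per column and 23 reads in all, of which 11 were from S129 (47.8%, 26.8 to 69.4). No difference between its alleles was detectable at this depth, and the gene was below the level needed for the test.

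Set against its surroundings, Peg13 lay below and Trappc9 above the median of the genes beside them. All 6 listed neighbours of Trappc9 were tested, and their S129 shares ran from 50.3 to 66.1%. They were listed by position, and whether any of them is itself imprinted was not tested. Chrac1, which encodes a histone-fold subunit of chromatin remodelling complexes and lies 29.2 kb from Trappc9, had a share of 54.4%, and Ago2, which encodes the slicing Argonaute protein, had 52.4%. Neither was called. The only called neighbour was Col22a1, a collagen gene with 66.1% of its reads from S129 (log2 difference 0.82, limma adjusted p = 0.0314), higher on the same allele as Trappc9. Its gap to Trappc9 was 555 kb. Relative to the median of these 6 genes within each library, the log2 difference was -2.10 ± 0.232 for Peg13, below 0 in 4 of 4 libraries, and 0.25 ± 0.0709 for Trappc9, above 0 in 4 of 4 (exact sign-flip p = 0.125 for each, adjusted 0.188).

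**Figure D2:**
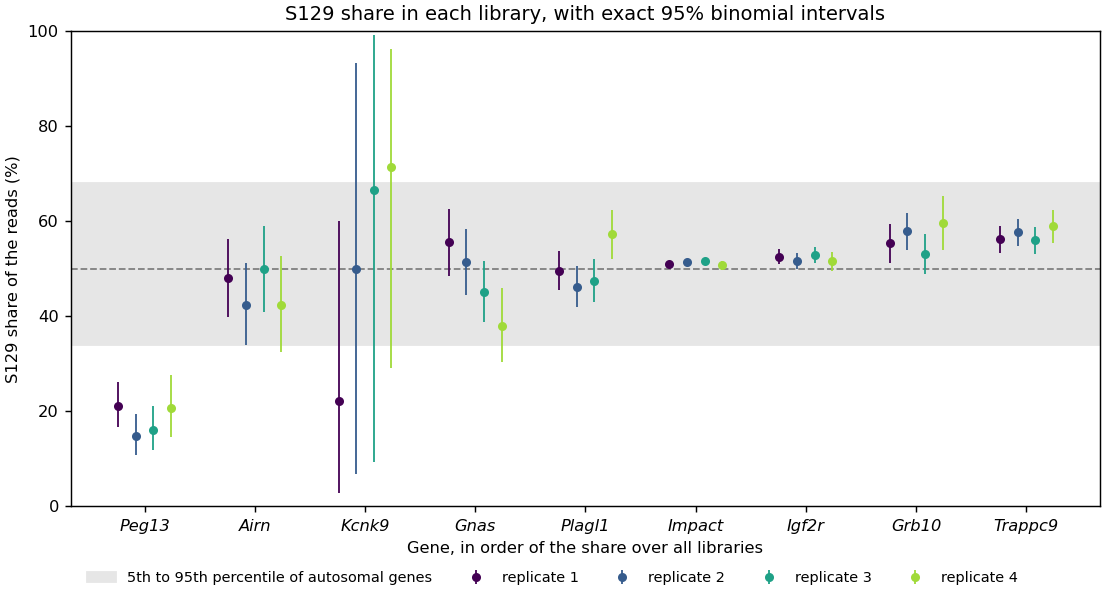
S129 share of the reads, in percent, for each of the 4 libraries (points, coloured by replicate) with exact 95% binomial intervals, for the 9 genes with reads; the grey band spans 33.9 to 68.1%, the 5th to 95th percentile of autosomal genes with at least 400 reads, and the dashed line marks 50%. All 4 libraries of Peg13, from 14.8 to 21.1%, lie below the band, and only the intervals of Kcnk9, with 3 to 9 reads per library, span most of the axis.

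Grb10 encodes an adaptor protein that dampens insulin and growth factor receptor signalling, and Plagl1 encodes the zinc finger transcription factor also known as ZAC1. Grb10 (ENSMUSG00000020176) lies on chromosome 11 from 11930508 to 12038683 on the minus strand, and Plagl1 (ENSMUSG00000019817) on chromosome 10 from 13060504 to 13131694 on the plus strand. These promoters are shown because they hold the ZFP57 hexamer, set in capitals and here on the other strand (GCGGCA). The Plagl1 promoter (chr10:13090582-13090881) has 26 CpG dinucleotides, and the Grb10 promoter at chr11:12037371-12037670 has 45.
Plagl1: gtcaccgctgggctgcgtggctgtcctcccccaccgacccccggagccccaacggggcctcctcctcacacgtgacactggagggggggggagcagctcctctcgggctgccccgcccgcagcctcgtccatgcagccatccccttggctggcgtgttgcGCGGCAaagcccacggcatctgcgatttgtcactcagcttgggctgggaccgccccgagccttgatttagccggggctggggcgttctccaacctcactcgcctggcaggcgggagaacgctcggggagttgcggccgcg
Grb10: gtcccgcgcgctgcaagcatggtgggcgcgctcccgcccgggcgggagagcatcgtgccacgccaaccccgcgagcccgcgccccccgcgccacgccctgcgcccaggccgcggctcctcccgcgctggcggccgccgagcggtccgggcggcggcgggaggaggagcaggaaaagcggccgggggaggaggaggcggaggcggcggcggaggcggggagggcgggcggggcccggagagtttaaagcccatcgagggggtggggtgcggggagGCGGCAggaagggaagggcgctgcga
The Nnat promoter (chr2:157559828-157560127) also holds the hexamer, so 3 of the 6 genes of the set with a RefSeq promoter had a match. These 6 genes have 10 promoter entries, so this count per gene cannot be set against the 11.6% of single promoters that hold it. The Gnas promoters, with 16 to 40 CpG dinucleotides, hold no match. A further RefSeq promoter of Grb10 (chr11:12027922-12028221) holds 9 CpG dinucleotides and no match. A match is only a run of letters in the reference, and whether the protein binds there was not measured.

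Grb10 was higher on the maternal S129 allele. From S129 it had 12.1, 15.4, 12.999 and 11.2 RPKM and from CAST 10.0, 11.6, 11.9 and 7.89 RPKM in replicates 1 to 4. S129 was above CAST in each library, but the ranges of the alleles overlapped. The S129 share over 2101 reads was 56.2% (54.1 to 58.3), with libraries between 53.1 and 59.7%, and S129 was 1.25-fold higher (log2 difference 0.32, 0.12 to 0.52, limma adjusted p = 0.0188). The call was lost without replicate 1 (limma adjusted p = 0.0558), without replicate 2 (adjusted p = 0.0739) and without pairing by library (adjusted p = 0.107). The deposited RPKM of Grb10 correspond to a transcript of 940 bp, whereas its annotated exons cover 9089 bp, and which isoforms the reads cover is not given in the sources used here.

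Plagl1 showed no difference between alleles past the threshold. Its S129 allele had 8.34, 7.72, 7.84 and 9.89 RPKM and its CAST allele 8.76, 9.36, 8.999 and 7.69 RPKM in replicates 1 to 4. CAST had the higher value in replicates 1 to 3 and S129 in replicate 4, and the ranges overlapped. The share over 2002 reads was 49.6% (47.4 to 51.8), with 57.3% (52.1 to 62.3) in replicate 4 and 46.2 to 49.6% in the others. The log2 difference was -0.05 (-0.37 to 0.28, limma adjusted p = 0.762).

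Impact encodes an inhibitor of the amino acid sensor kinase GCN2 and was by far the most deeply read gene of the set. It lies on chromosome 18 from 12955852 to 12992950 on the plus strand (ENSMUSG00000024423). For Impact, S129 had 112.7, 125.2, 120.3 and 94.7 RPKM and CAST 111.9, 123.7, 117.2 and 95.7 RPKM in replicates 1 to 4. The alleles tracked each other from library to library and overlapped throughout. Over 74089 reads the S129 share was 51.2% (50.9 to 51.6), with libraries between 50.7 and 51.6%. The log2 difference was 0.01 (-0.07 to 0.09, limma adjusted p = 0.736) and 0.12 with equal autosomal sums (adjusted p = 0.0593). The median over all genes tested was 0.099 in that setting.

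Gnas encodes the stimulatory G protein alpha subunit and, from other promoters, further imprinted products, and the deposited values give a single row for all of them. It lies on chromosome 2 from 174284320 to 174346744 on the plus strand (ENSMUSG00000027523). Its S129 allele had 1.91, 2.02, 2.14 and 1.70 RPKM and its CAST allele 1.57, 1.99, 2.69 and 2.91 RPKM in replicates 1 to 4. S129 was higher in replicates 1 and 2 and CAST in replicates 3 and 4. The share over 811 reads was 48.0% (44.5 to 51.5), but the intervals of replicates 1 and 4 did not overlap, with 55.7% (48.5 to 62.6) in replicate 1 and 37.9% (30.4 to 45.9) in replicate 4. The log2 difference was -0.19 (-0.68 to 0.30, limma adjusted p = 0.403), the widest interval of the 8 genes tested. It ranged from -0.35 without replicate 1 to -0.01 without replicate 4.

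Nnat encodes neuronatin, a small membrane protein, and lies on chromosome 2 from 157560078 to 157562522 on the plus strand (ENSMUSG00000067786), inside the bounds of Blcap on the other strand without meeting an exon of its 6 annotated transcripts. Nnat was listed at 0 in all 8 columns. A value of 0 in these columns may also mean that no read could be assigned, which was not tested. Blcap itself had 3474 reads, of which 47.4% were from S129 (log2 difference -0.25, limma adjusted p = 0.139).

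Of the set, only Peg13 lay outside the 5th to 95th percentile of the S129 share over autosomal genes. Of 11377 autosomal genes with at least 400 reads, 75.7% had an S129 share between 40 and 60%, and the percentiles were at 33.9 and 68.1%. An S129 share at or under that of Peg13 was found in 107 of these genes (0.940%), Peg13 included. Grb10 and Trappc9, although called, lay at 78.3 and 80.7% of the distribution, and 40.2 and 35.9% of the genes were at least as far from an equal share. Impact, Plagl1 and Igf2r were as close to 50% as, or closer than, 84.5, 94.9 and 72.6% of the genes respectively.

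**Figure D3:**
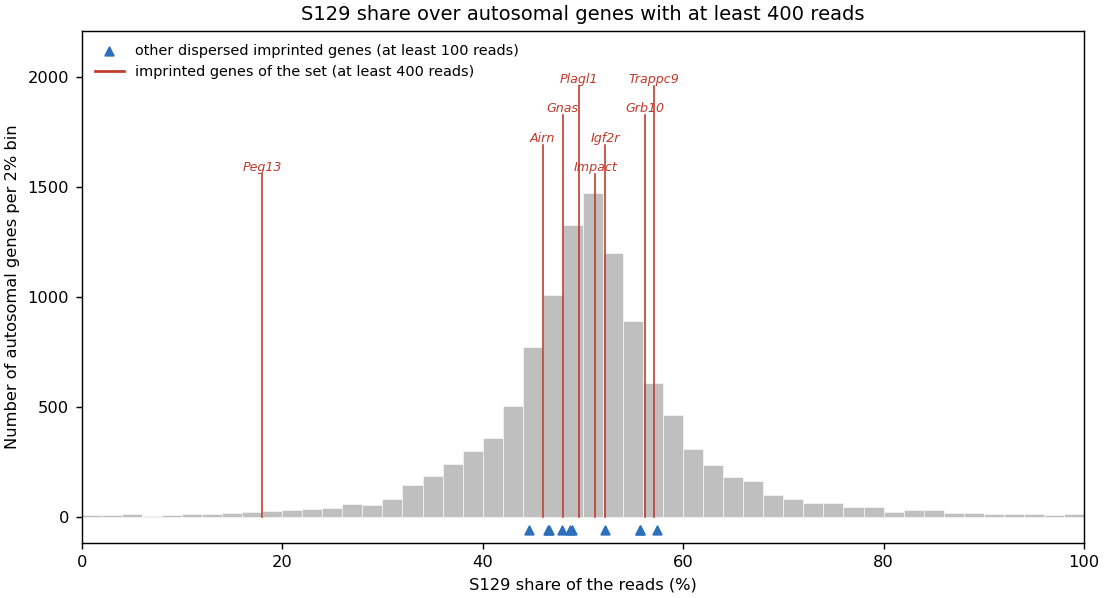
Number of autosomal genes with at least 400 reads (grey bars, y axis) by the S129 share of their reads in bins of 2% (x axis, percent), with red lines at the 8 imprinted genes of the set that reach this depth and blue triangles at 10 other dispersed imprinted genes with at least 100 reads. The line of Peg13 at 18.0% stands in the lower tail, and the other red lines fall between 46.0 and 57.1%, where most genes lie.

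In the neighbourhoods of the set, 54 listed genes with a gap of up to 694 kb to a gene of the set were present, and 41 were tested. Of these, 10 were called with a higher S129 and 6 with a higher CAST allele, beside 31.4 and 31.3% of all genes tested. Of the neighbours, 17 and 4 were called when each allele column was scaled to the same autosomal sum. That scaling moved the median log2 difference over all genes tested from -0.003 to 0.099. Over the 41 neighbours with at least 100 reads, S129 shares ran from 21.5 to 70.1%, and 32 lay between 40 and 60%. The same was true of 7 of the 8 imprinted genes of the set and 71.4% of 13865 autosomal genes at that depth. Whether any neighbour is itself imprinted was not tested. The only neighbours called with at least a 2-fold difference stood beside Impact: Ttc39c at 70.1% S129 (log2 difference 1.18, limma adjusted p = 0.00112) and Lama3, a laminin chain, at 21.5% (log2 difference -1.87, limma adjusted p = 1.28e-05). Impact, 217 kb from Ttc39c and 373 kb from Lama3, was at 51.2%, and its log2 difference relative to the median of its tested neighbours was 0.07 ± 0.433 (exact sign-flip p = 0.875). Relative to their own neighbours, the differences were 0.28 ± 0.118 for Igf2r (above 0 in 4 of 4 libraries, exact sign-flip p = 0.125), 0.27 ± 0.246 for Grb10 (exact p = 0.25), -0.09 ± 0.24 for Airn (exact p = 0.75), -0.17 ± 0.291 for Plagl1 (exact p = 0.375) and -0.26 ± 0.418 for Gnas (exact p = 0.375).

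**Figure D4:**
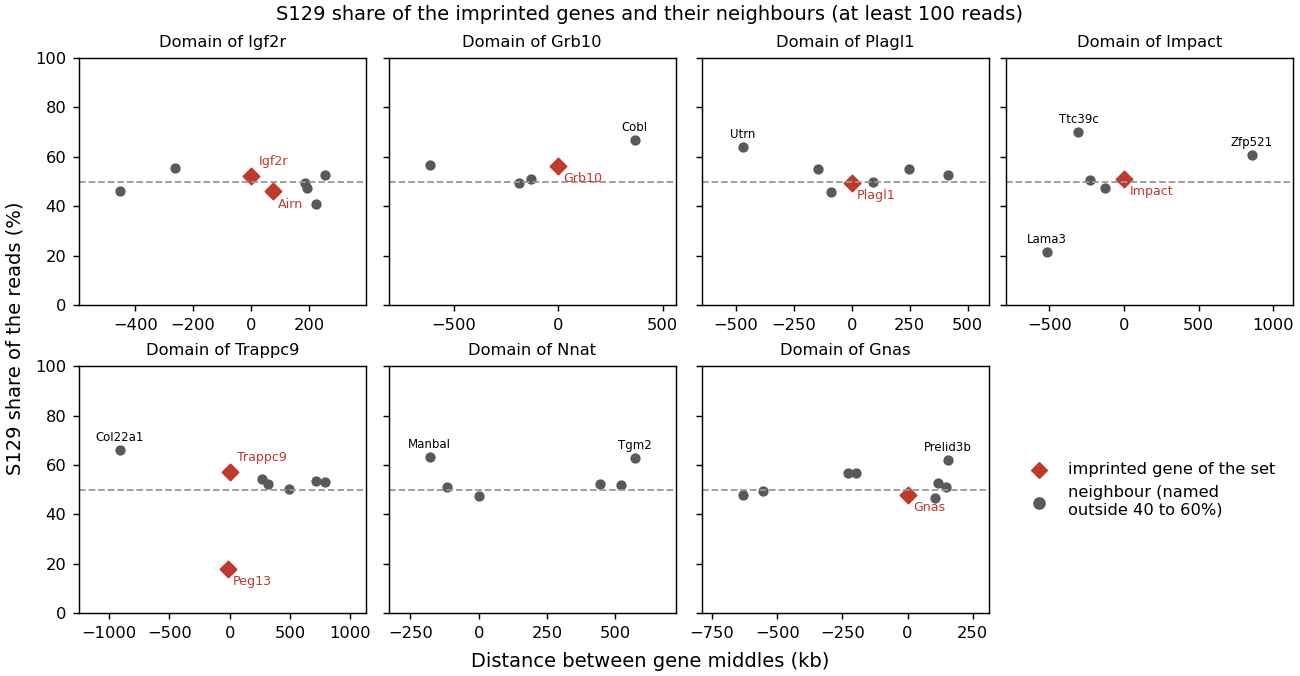
S129 share of the reads, in percent, against the distance in kb between the middle of each gene and that of the gene named above the panel, for the imprinted genes of the set (red diamonds) and their listed neighbours (grey points), all with at least 100 reads; neighbours outside 40 to 60% are named. Peg13 at 18.0% lies far below Trappc9 at 57.1%, in whose intron it sits, and Lama3 at 21.5% and Ttc39c at 70.1% lie on the same side of Impact at 51.2%.

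Other imprinted genes outside the large clusters were also read from both alleles. Of 11 such genes, 10 were tested, and all 10 had an S129 share between 44.6 and 57.4%. Herc3 was called with a higher S129 allele (57.4%, log2 difference 0.36). Slc38a4, Mcts2, Zrsr1, Inpp5f and H13 were called with a higher CAST allele (44.6 to 48.7%, log2 differences from -0.36 to -0.14). So 6 of 10 were called, beside 62.7% of the 13341 genes tested, and the calls do not set these genes apart. With each allele column scaled to the same autosomal sum, 3 were called with a higher S129 and 2 with a higher CAST allele. The calls of Mcts2 (limma adjusted p = 0.193), Zrsr1 (adjusted p = 0.0563) and H13 (adjusted p = 0.559) were lost. The median log2 difference over all genes tested was then 0.099 in place of -0.003. The call of H13 was also lost whichever library was left out (limma adjusted p from 0.0753 to 0.122). None was called with a 2-fold difference, and Rasgrf1 was not tested because it had a single read. Factors known to keep imprints were present, with 9 of 9 between 10.8 and 1310 RPKM, led by Trim28 at 1310, Dppa3 at 178 and Uhrf1 at 122 RPKM. Zfp57, whose protein binds the hexamer above, had 25.3 RPKM, with 79.1% of its reads from S129. Zfp57 and these 6 called genes were named after their values were seen.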

How the data were processed

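RNAseq of polyA-enriched RNA from F123-ESCs was measured in 4 libraries with a stranded kit and 150 bp paired reads. The authors filtered out ribosomal reads, trimmed with Trimmomatic 0.40, aligned with STAR to mm10 with strain SNPs masked, split the reads by allele with SNPsplit and deposited RPKM per gene and allele. The counting program, the annotation and the use of strand are not given in the sources used here. The averages over the libraries and their log10 values, also deposited by the authors, were not used, and 0 columns of other samples were found.

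The values were matched to libraries by the allele and number in each column's name and to GENCODE M21 by Ensembl identifier (23995 of 24026 genes). RPKM steps were whole multiples of 1 read for 99.5% of the 20243 genes above 0 (tolerance 0.02 reads), which gave the reads behind each value, with the total of each allele and library as denominator. For Airn, Impact, Kcnk9 and Trappc9 no annotated length gave whole reads, so the smallest length from 50 to 30000 bp that did was taken, and their reads are the fewest possible. Clopper-Pearson intervals cover at most counting error and not the spread between libraries. Without molecular identifiers a read is not an independent molecule, so they may be too narrow even for counting error.

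Differences of log2(RPKM+0.1) between S129 and CAST within each library were tested with limma 3.58.1 in R 4.3.3 (intercept only, two-sided, Benjamini-Hochberg over the 13341 genes with at least 1 RPKM in the alleles together). The pseudocount understates the differences of low genes. Both allele columns come from the same library, and deviations from the allele means correlated at 0.105 to 0.195 for columns of the same number and -0.155 to 0.140 for others. A count model was not the main test because the deposited unit is RPKM. The recovery and tests were tested on simulated data.

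The set, the neighbour lists (56 genes, 54 present) and the marker lists were chosen with earlier results of these data known. Named were all 10 genes of the set, listed neighbours and other imprinted genes called with at least a 2-fold difference or overlapping the set, and up to 3 genes of each marker list by RPKM. Chrac1, Ago2 and Col22a1 were named after their values were seen. Promoters came from RefSeq (GRCm38.p6), in which 6 genes of the set matched. Impact, Kcnk9, Peg13 and Trappc9 had no entry. Alternatives were other pseudocounts and filters, equal autosomal sums, chromosome medians taken out, no pairing, a variance trend, each library left out and, added after seeing the data, whole reads not divided by totals for genes with at least 100 reads.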

Additional observations from a re-analysis of the deposited data

How the results depend on the processing

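Peg13 kept its direction and its call in all 12 alternatives in which it was tested (log2 difference -2.22 to -1.03, the smallest with a pseudocount of 1), and Trappc9 in all 13 (0.31 to 0.46). Grb10 was called in 10 of 13 (limma adjusted p from 0.00494 to 0.107). Plagl1, Impact and Gnas were called in none, a p over the threshold not showing that alleles are equal. The number of called genes of the set was 2 to 4. Airn was added with a pseudocount of 1, at least 5 RPKM, a variance trend, without replicate 3 or without the replicate block, and Igf2r with equal autosomal sums, with chromosome medians taken out and in whole reads. With at least 5 RPKM, Peg13 and Gnas were not tested. The median log2 difference over all genes tested was 0.099 with equal autosomal sums and 0.052 in whole reads. It was -0.0007 with chromosome medians taken out.

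Without the replicate block, that is without pairing by library, 3 genes of the set were called (Trappc9, Peg13 and Airn), 6425 genes in all in place of 8369, and 2 of the other dispersed imprinted genes in place of 6 (Herc3 and Inpp5f), and the cause was not tested. Plagl1, which was never called, changed the sign of its log2 difference to 0.056 with equal autosomal sums, to 0.0088 in whole reads not divided by totals, and from -0.181 to 0.031 as a library was left out, with 0.0047 without replicate 3. Nap1l5, also not called, ranged from -0.047 to 0.679 as a library was left out, the lowest without replicate 3. With a library left out, 6846 to 7904 genes were called in all. The share of Igf2r was 51.2% and that of Impact 50.2% as a share of RPKM in place of reads, since the S129 totals are larger.

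Few reads limit Kcnk9 (23 reads), Airn (509) and Gnas (811), levels depend on the gene lengths behind the RPKM, and a single cross cannot separate strain from parent.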

Other observations

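Genes elsewhere in the genome had allelic differences close to those of Trappc9 and, at larger distances, Peg13. Over 12861 autosomal genes tested outside the set, those with the smallest Euclidean distance to Trappc9 over its 4 within-library log2 differences were D630023F18Rik (distance 0.0260, 56.9% S129), Rer1 (0.0348, 56.8%), which encodes a protein that returns cargo to the endoplasmic reticulum, and Cat (0.0405, 56.7%), which encodes catalase. They lie on chromosomes 1, 4 and 2.

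Closest to Peg13 were Rsph1 (distance 0.146, 20.98% S129), which encodes a radial spoke protein of cilia, Myh9 (0.343, 20.6%), a nonmuscle myosin heavy chain also on chromosome 15, and Tmc3 (0.390, 17.8%). At the ends of the distribution, 40 of the 11377 autosomal genes with at least 400 reads had an S129 share of 10% or less and 64 of 90% or more, and none of the 10 genes of the set was among them.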
